A study of Homo sapiens with 18 samples.

Results

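The 39 genes described here encode the transcription factors, enzymes, transporters and endoplasmic reticulum proteins of the unfolded protein response and of the stress response driven by the transcription factor ATF4. They were chosen by gene name from what their products are known to do, with earlier results of these data known, among them that stress genes differed by replicate number. All 39 were found among the 60675 genes listed, each under 1 gene ID. RNA was measured in U87, an established human glioblastoma line labelled as glial cells without genetic modification, after 24 h with a rexinoid or with ethanol, the solvent. The 18 libraries formed 6 groups of 3. The rexinoids, each at 100 nM, were A34, A41, A80 and A98, known here by code only, and bexarotene, a rexinoid in clinical use that served as a positive control. The last group received ethanol alone (0 nM). Rexinoids bind retinoid X receptors (RXR), nuclear receptors that act on DNA together with partner receptors. The labels do not state whether replicates were separate cultures. The p-values here thus describe spread among libraries, possibly of technical origin, and all results come from 1 cell line.

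When unfolded proteins build up in the endoplasmic reticulum, the sensors PERK (EIF2AK3), IRE1 (ERN1) and ATF6 signal to the nucleus, and chaperones, folding enzymes and degradation factors are made. PERK is also one of the kinases that phosphorylate the translation factor eIF2, as do kinases that sense lack of amino acids or other stress. That lowers protein synthesis in general but raises translation of ATF4, which turns on genes for amino acid synthesis and uptake, for feedback on the stress signal and for growth arrest. Because ATF4 protein is set mainly by translation, its mRNA level does not measure its activity. In the text below, the ATF4 arm means the 22 transcription factors and target genes of that response, and the endoplasmic reticulum arm means the other 17 genes.

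All 39 genes met the condition for testing, at least 1 TPM in at least 3 libraries, as did 18269 genes in all. Levels are in scaled TPM, the deposited TPM divided by a factor for each library. Averages over the 18 libraries ran from 4.69 for ERN1 to 756 for CALR, with a median of 44.0. Depth, estimated as the commonest ratio of deposited coverage to FPKM, was 1.31 to 3.89 gigabases per library. Of the genes used for it, 17.5% to 20.7% lay at that ratio. Of TPM, ribosomal RNA took 56.1% in A41 replicate 2, 44.9% in bexarotene replicate 1 and 35.5% in ethanol replicate 2, and 0.317% to 4.32% elsewhere. The mesenchymal markers VIM, CD44 and FN1 averaged 4035, 1009 and 298 scaled TPM and the astroglial genes CLU, GJA1 and SLC1A3 198, 68.8 and 20.8, while GFAP, the defining filament of astrocytes, averaged 0.783. The leukocyte gene PTPRC averaged 0.0571, the endothelial PECAM1 0.646, the epithelial EPCAM 0.933, the oligodendrocyte MBP 1.23 and the neuronal SNAP25 14.1. In bulk RNA, fewer cells of a kind and less RNA per cell cannot be told apart.

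Across treatments, most genes of the ATF4 arm had higher values with A34 and A80 than with ethanol, DDIT4 above all, and the chaperone genes differed little. None of the 39 genes passed the test against ethanol in the fit with group as its single term. The 5 comparisons and their mean share the same 3 ethanol libraries. By limma, with adjustment over all genes tested and a threshold of 0.05, 0 of 39 passed with A34, where 0.0821% of all genes did. The counts were 0 of 39 with A41 (0.755% of all genes), 0 with A80 (0.0438%), 0 with A98 (0.0328%), 0 with bexarotene (0.0547%) and 0 for the mean of the 5 rexinoids (0.203%). An unadjusted p under 0.05 was found for 14 genes with A34 (10.7% of all genes), 2 with A41 (10.3%), 17 with A80 (9.43%), 8 with A98 (6.63%), 4 with bexarotene (5.75%) and 13 for the mean of the 5 (10.3%). In the comparison of A41 with ethanol, the replicate numbers in the titles were taken to pair the libraries. Deviations of same-numbered libraries from their group means correlated there at 0.119 to 0.307. Both second replicates were rich in ribosomal RNA, and its part in these correlations was not tested, so the pairing is an assumption. A fit of all 18 libraries with these numbers as a block called 1 of 39 in that comparison, DDIT4 (adjusted p = 0.0201 by limma), against 1.08% of all genes.

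The changes are given by arm, without a test of the arms against each other. The ATF4 arm had the higher median with A34, A80, A98 and bexarotene, and the lower one with A41. In A34 against ethanol, where 49.4% of all genes had a positive log2 change, 20 of the 22 genes of the ATF4 arm did, with a median of 0.38, and 13 of the 17 genes of the endoplasmic reticulum arm with a median of 0.06. In A80 (49.1% of all genes positive) the counts were 21 of 22 with a median of 0.40 and 12 of 17 with a median of 0.04. A98 (49.5%) had 17 of 22 with a median of 0.19 against 11 of 17 with 0.05, and bexarotene (50.9%) 18 of 22 with 0.14 against 11 of 17 with 0.01. A41 (48.7%) had 10 of 22 with a median of -0.03 in the ATF4 arm and 11 of 17 with a median of 0.09 in the other arm. The median of all genes tested lay between -0.007 and 0.004 in these comparisons. With scaled TPM, the number of the 39 genes with a positive change was 33 for A34, 21 for A41, 33 for A80, 28 for A98 and 29 for bexarotene. With TPM as deposited, which moved the median of all genes by between -0.27 and 0.15, it was 35 for A34, 2 for A41, 36 for A80, 39 for A98 and 9 for bexarotene. These counts include a shift shared by all genes, whose median was then -0.27 for A41 and -0.16 for bexarotene, against a median over the 39 genes of -0.27 and -0.10.

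**Figure D1:**
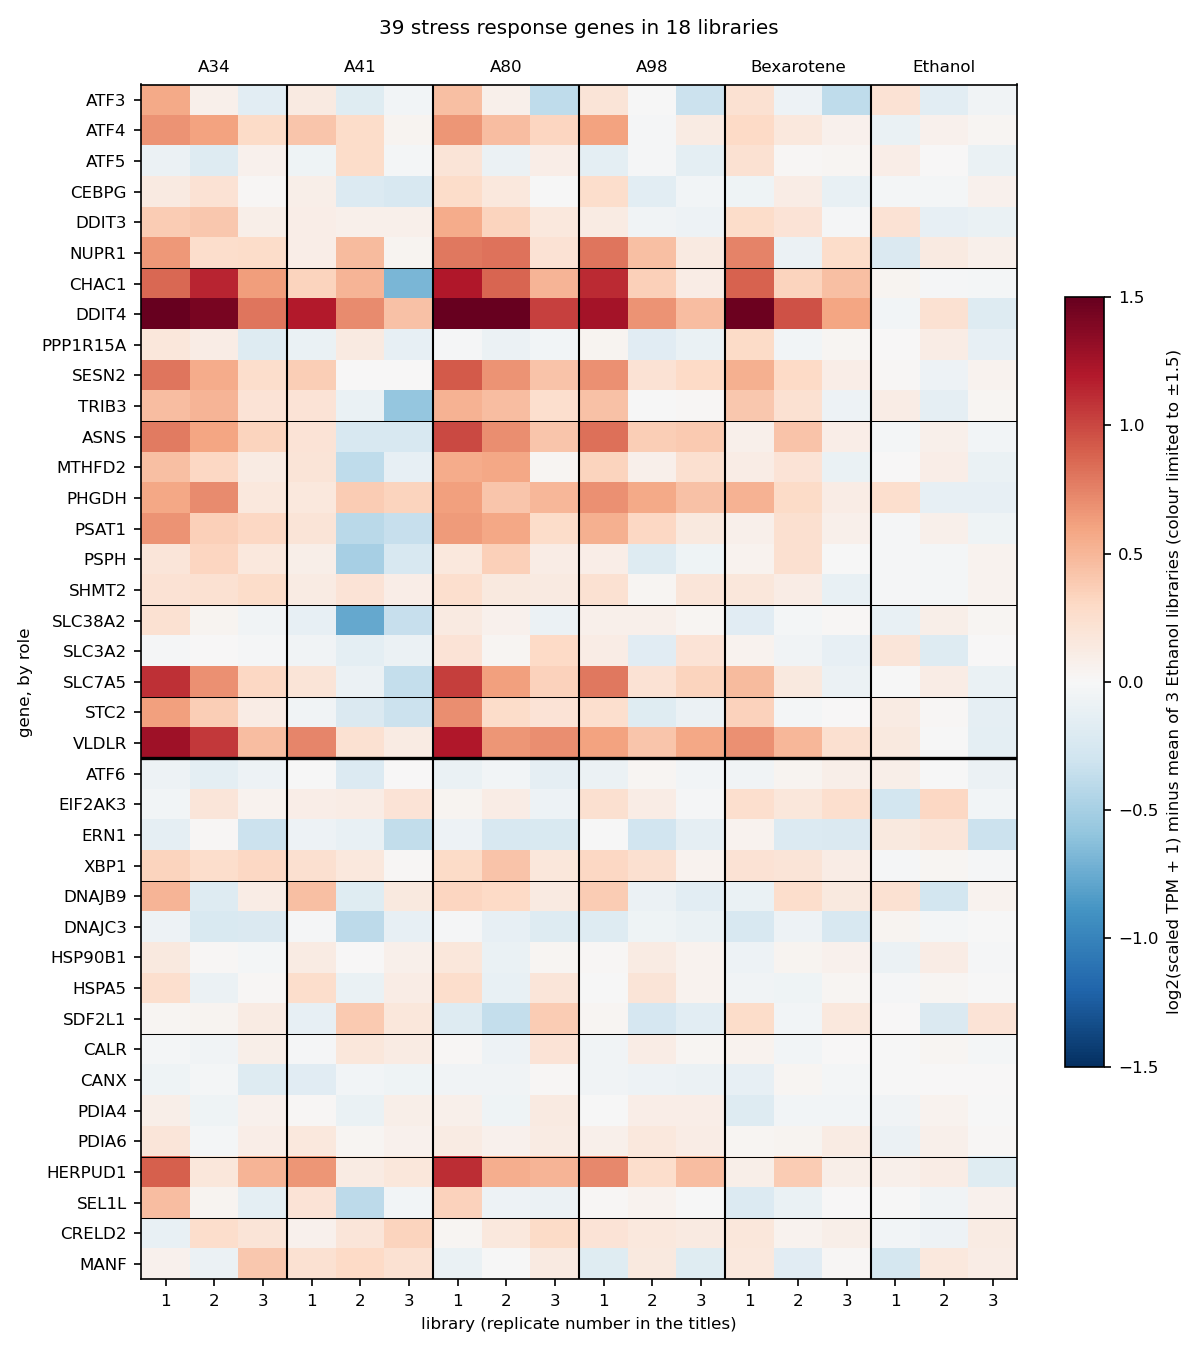
Level of each of the 39 genes (rows, by role; the thick line separates the ATF4 arm above from the endoplasmic reticulum arm below) in each of the 18 libraries (columns, 3 per group, numbered by replicate), as log2(scaled TPM + 1) minus the mean of the 3 ethanol libraries. Red cells gather in the upper rows, in the first libraries of A34 and A80, and the rows of the chaperones and folding enzymes are pale in all groups.

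Among genes that carry out or damp the stress response, DDIT4 had the widest separation. DDIT4, which encodes an inhibitor of the growth kinase complex mTORC1 (ENSG00000168209, chr10:72273924-72276036 on GRCh38), had 257, 192 and 124 scaled TPM in A34 libraries, 163, 116 and 96.5 in A41, 303, 209 and 145 in A80, 170.0, 113 and 97.6 in A98 and 199, 139 and 107 in bexarotene libraries, against 69.01, 82.9 and 61.96 in ethanol libraries (replicates 1, 2 and 3 in this and the following lists). Each of the 15 rexinoid libraries lay above all 3 ethanol libraries, and DDIT4 was the single one of the 39 genes for which this held, as it did for 0.816% of all genes. Group means were 191 ± 66.4 with A34, 125 ± 34.2 with A41, 219 ± 79.6 with A80, 127 ± 38.1 with A98, 148 ± 46.3 with bexarotene and 71.3 ± 10.7 with ethanol (SD, n = 3 each). The log2 change for the mean of the 5 rexinoids was 1.10 (SE 0.24, adjusted p = 0.0978 by limma), with a 95% interval of 0.58 to 1.61. With single compounds it was 1.55 (adjusted p = 0.165) for A80, 1.36 (adjusted p = 0.162) for A34, 1.01 for bexarotene, 0.79 for A98 and 0.78 for A41, by limma. With the replicate numbers in the titles added as a block, DDIT4 passed with A34 (0.909% of all genes), A41 (1.08%), A80 (0.64%) and bexarotene (0.0712%). DDIT4 also passed there for the mean of the 5 (0.805%) but not with A98 (0.0438%). DDIT4 is also a known target of the hypoxia-inducible factors. A list of 16 hypoxia and glycolysis genes averaged 1.46, 0.70 and 0.41 in A34 libraries and 1.45, 0.67 and 0.42 in A80 libraries, against 0.14, 0.03 and -0.18 in ethanol libraries, on the log2 scale relative to the ethanol mean. The part of these genes in the DDIT4 result was not tested.

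SESN2, which encodes a sensor of leucine that also restrains mTORC1 (chr1:28259518-28282491), had 33.3, 27.9 and 22.6 scaled TPM in A34 libraries, 24.4, 18.7 and 18.6 in A41, 36.1, 30.2 and 25.3 in A80, 30.4, 21.7 and 23.1 in A98 and 27.5, 23.1 and 20.03 in bexarotene libraries, against 18.8, 17.6 and 19.4 in ethanol libraries. All libraries of A34, A80, A98 and bexarotene exceeded the ethanol libraries, and those of A41 overlapped them. Its log2 change was 0.67 (SE 0.17, adjusted p = 0.244 by limma) with A80 and 0.54 (SE 0.17, adjusted p = 0.266 by limma) with A34. CHAC1, a glutathione-degrading enzyme and ATF4 target, had 14.3, 17.5 and 11.97 scaled TPM in A34 libraries, 9.55, 10.99 and 4.24 in A41, 18.3, 14.4 and 10.96 in A80, 17.2, 9.75 and 8.09 in A98 and 14.5, 9.59 and 10.5 in bexarotene libraries, against 7.67, 7.32 and 7.22 in ethanol libraries. The ethanol values were close together, and every library of A34, A80, A98 and bexarotene was above them, while A41 replicate 3 was the lowest of the 18. The change on the log2 scale was 0.88 (SE 0.29, adjusted p = 0.301 by limma) with A34 and 0.86 (SE 0.29, adjusted p = 0.405 by limma) with A80. TRIB3, a pseudokinase that feeds back on ATF4 and DDIT3, had 8.51, 8.77 and 6.93 scaled TPM in A34 libraries, 6.92, 5.42 and 3.62 in A41, 8.87, 8.45 and 7.19 in A80, 8.36, 5.84 and 5.97 in A98 and 8.12, 7.06 and 5.53 in bexarotene libraries, against 6.41, 5.25 and 6.03 in ethanol libraries. A34 and A80 libraries lay above all ethanol libraries and the other groups overlapped them, with log2 changes of 0.39 (adjusted p = 0.472) for A34 and 0.41 (adjusted p = 0.513) for A80 by limma. PPP1R15A, the phosphatase subunit that removes phosphate from eIF2, ranged from 38.2 to 53.8 scaled TPM over the 18 libraries, and its log2 change for the mean of the 5 was -0.01 (adjusted p = 0.987).

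**Figure D2:**
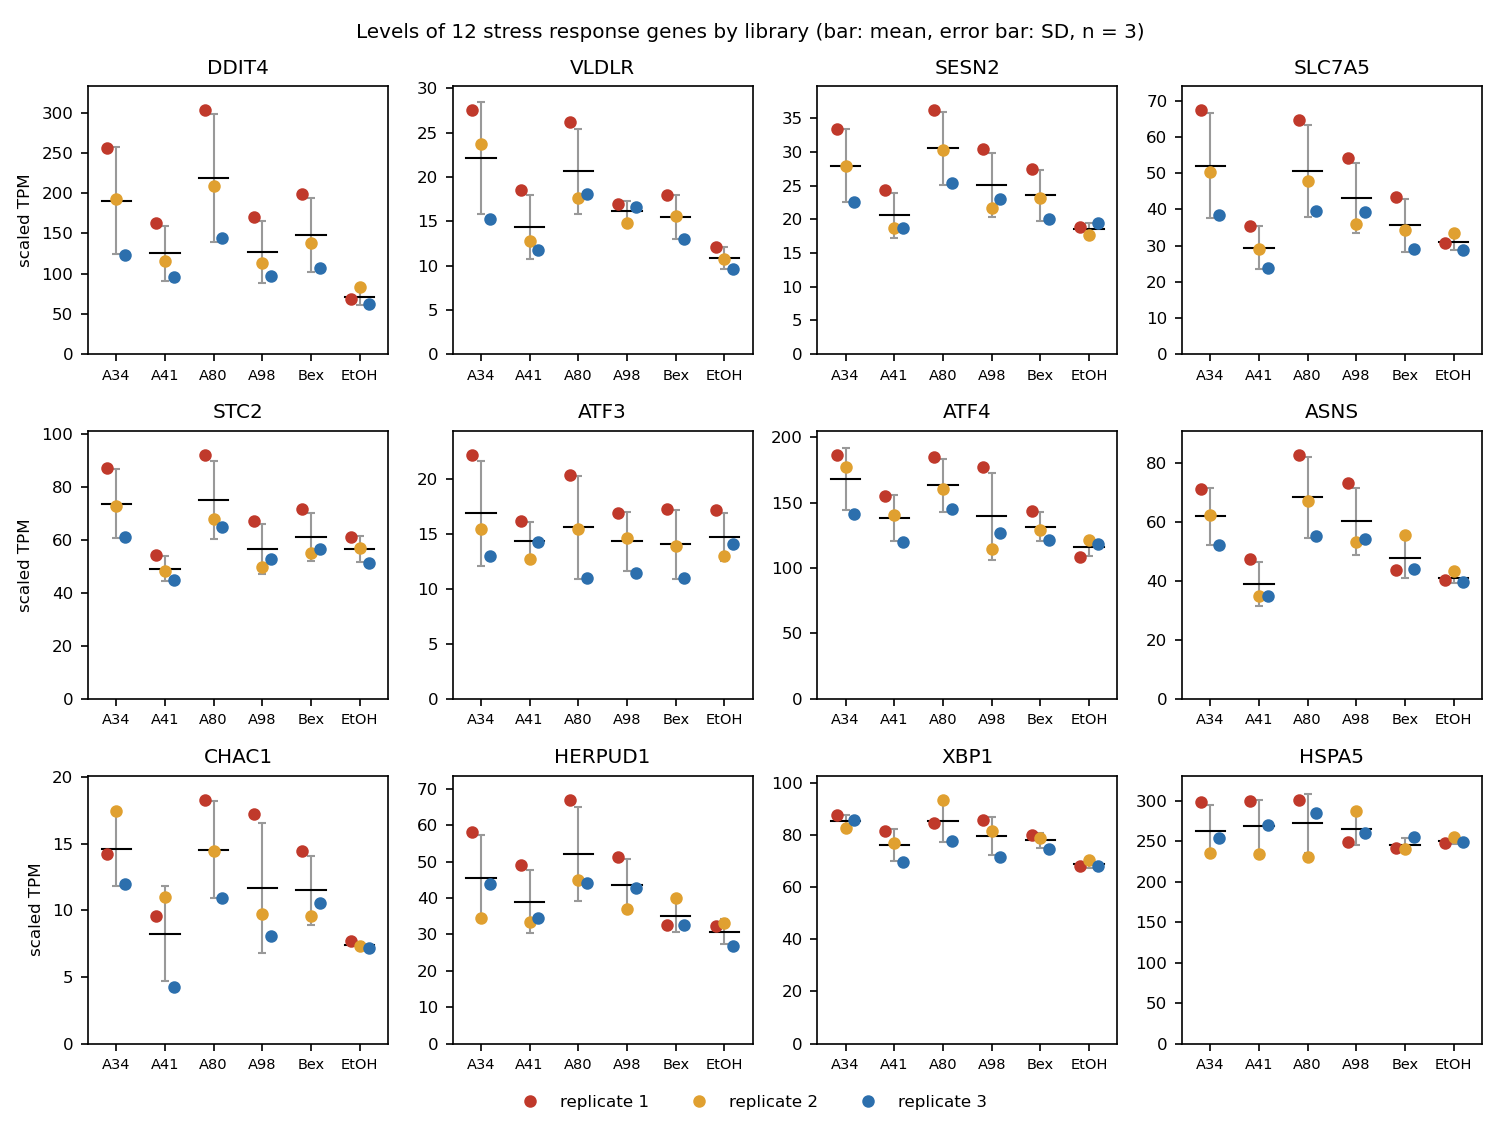
Scaled TPM of 12 of the genes by group, with 1 point per library coloured by replicate number, a line at the mean and an error bar of 1 SD (n = 3). In DDIT4 every rexinoid point lies above the 3 ethanol points, which reach 82.9 scaled TPM. The points of replicate 1 are the highest in each rexinoid group for DDIT4, SESN2, SLC7A5, STC2, VLDLR, ATF3 and ATF4, and the HSPA5 groups overlap.

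Of the 6 transcription factors, ATF4 itself had the clearest separation in A34 and A80. ATF4 (chr22:39519672-39522683) had 186, 177 and 142 scaled TPM in A34 libraries, 155, 140.3 and 119.7 in A41, 185, 160.2 and 145 in A80, 177, 115 and 127 in A98 and 143, 129 and 122 in bexarotene libraries, against 109, 122 and 119 in ethanol libraries. The libraries of A34, A80 and bexarotene all exceeded the highest ethanol value, bexarotene replicate 3 by less than 1 scaled TPM, whereas A41 and A98 each had 1 library inside the ethanol range. Its log2 change was 0.52 (SE 0.15, adjusted p = 0.244 by limma) with A34 and 0.48 (SE 0.15, adjusted p = 0.371 by limma) with A80. DDIT3, the growth arrest and cell death factor CHOP, had 31.7, 32.3 and 25.7 scaled TPM in A34 libraries, 25.9, 25.6 and 25.4 in A41, 36.1, 30.8 and 27.1 in A80, 26.4, 23.3 and 22.8 in A98 and 29.4, 27.9 and 23.8 in bexarotene libraries, against 28.1, 22.1 and 22.5 in ethanol libraries. Groups overlapped for every compound, and the log2 changes were 0.35 (adjusted p = 0.410) for A80 and 0.29 (adjusted p = 0.403) for A34 by limma. ATF3, a stress-induced repressor and activator of the same family (chr1:212565334-212620777), had 22.1, 15.4 and 12.97 scaled TPM in A34 libraries, 16.2, 12.8 and 14.2 in A41, 20.3, 15.4 and 11.00 in A80, 16.9, 14.6 and 11.5 in A98 and 17.2, 13.9 and 11.02 in bexarotene libraries, against 17.1, 12.9 and 14.1 in ethanol libraries. Here the spread lay within groups and not between them, and the log2 change for the mean of the 5 was 0.01 (adjusted p = 0.990) by limma. NUPR1, a small chromatin protein induced by stress, had log2 changes of 0.60 (adjusted p = 0.434) for A80 and 0.39 (adjusted p = 0.555) for A34, and its 3 libraries of either compound lay above the ethanol libraries. CEBPG, the partner that dimerizes with ATF4 on DNA, and ATF5, another factor translated under stress, had log2 changes for the mean of the 5 of 0.03 (adjusted p = 0.934) and 0.01 (adjusted p = 0.983) by limma.

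Of the genes of amino acid supply, ASNS, PSAT1 and SLC7A5 were highest with A80 or A34 and lowest with A41 among the rexinoids, and none passed against ethanol. ASNS, asparagine synthetase (chr7:97851677-97872542), had 71.2, 62.4 and 52.1 scaled TPM in A34 libraries, 47.5, 34.8 and 34.8 in A41, 82.7, 67.1 and 55.4 in A80, 73.4, 53.2 and 54.3 in A98 and 43.6, 55.6 and 43.98 in bexarotene libraries, against 40.3, 43.4 and 39.8 in ethanol libraries. All libraries of A34, A80, A98 and bexarotene were above ethanol, and 2 of the 3 A41 libraries were below it. Relative to ethanol the log2 change was 0.70 (SE 0.17, adjusted p = 0.235 by limma) with A80 and 0.57 (SE 0.17, adjusted p = 0.246 by limma) with A34. PHGDH, the first enzyme of serine synthesis, had 84.4, 92.9 and 63.2 scaled TPM in A34 libraries, 62.8, 73.7 and 70.97 in A41, 86.5, 75.5 and 80.1 in A80, 91.1, 84.1 and 76.7 in A98 and 81.1, 69.02 and 60.7 in bexarotene libraries, against 67.02, 51.7 and 51.4 in ethanol libraries. A80 and A98 were separate from ethanol, and the log2 change was 0.57 (SE 0.14, adjusted p = 0.486 by limma) with A98 and 0.43 (SE 0.11, adjusted p = 0.179 by limma) for the mean of the 5. PSAT1, the next enzyme of that pathway, had 114, 90.9 and 87.9 scaled TPM in A34 libraries, 81.3, 53.2 and 55.5 in A41, 111, 106 and 86.1 in A80, 103, 88.2 and 78.7 in A98 and 74.8, 83.8 and 74.7 in bexarotene libraries, against 70.3, 74.8 and 67.8 in ethanol libraries. A34, A80 and A98 lay above the ethanol libraries, and 2 of 3 A41 libraries lay below all of them. PSPH, which completes serine synthesis, and the mitochondrial one-carbon enzymes SHMT2 and MTHFD2 had log2 changes with A34 of 0.22 (adjusted p = 0.553), 0.24 (adjusted p = 0.270) and 0.29 (adjusted p = 0.526) by limma, with all 3 A34 libraries of each above the ethanol libraries.

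SLC7A5, the light chain of the large neutral amino acid transporter LAT1 (chr16:87830023-87869507), had 67.3, 50.4 and 38.4 scaled TPM in A34 libraries, 35.5, 29.04 and 23.8 in A41, 64.6, 47.8 and 39.6 in A80, 54.3, 36.01 and 39.2 in A98 and 43.5, 34.3 and 29.001 in bexarotene libraries, against 30.7, 33.3 and 28.8 in ethanol libraries. A34, A80 and A98 were separate from ethanol, and A41 and bexarotene overlapped it. Its log2 change came to 0.70 (SE 0.22, adjusted p = 0.275 by limma) with A34 and 0.67 (SE 0.22, adjusted p = 0.386 by limma) with A80. SLC3A2, the heavy chain that brings SLC7A5 to the membrane, ranged from 81.4 to 114 scaled TPM, with a log2 change of 0.02 (adjusted p = 0.966) for the mean of the 5. SLC38A2, the glutamine and alanine transporter SNAT2, had 155, 98.7 and 133 scaled TPM in A41 libraries against 157, 179 and 172 in ethanol libraries. All A41 libraries were below ethanol, and the log2 change of -0.41 (SE 0.13, adjusted p = 0.210 by limma) had the smallest p among the 39 genes in that comparison. The lowest value, 98.7, came from A41 replicate 2, the library with 56.1% ribosomal RNA. Replicate 1 lay close to ethanol replicate 1 (155 against 157). Under the alternatives run, the log2 change of SLC38A2 ranged from -0.75 to -0.19. The smallest change, -0.19, came from the fit without the 3 libraries rich in ribosomal RNA. The part of ribosomal RNA in the change was not tested.

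VLDLR, a lipoprotein receptor induced by PERK and ATF4 (chr9:2621787-2660056), had 27.5, 23.7 and 15.2 scaled TPM in A34 libraries, 18.5, 12.8 and 11.8 in A41, 26.2, 17.7 and 18.1 in A80, 16.9, 14.8 and 16.6 in A98 and 17.9, 15.6 and 12.9 in bexarotene libraries, against 12.1, 10.8 and 9.65 in ethanol libraries. Apart from A41 replicate 3, which was below ethanol replicate 1, all rexinoid libraries exceeded the ethanol libraries. Against ethanol, the log2 change was 0.93 (SE 0.21, adjusted p = 0.160 by limma) with A34, the smallest p among the 39 in that comparison, 0.85 (SE 0.21, adjusted p = 0.244 by limma) with A80 and 0.63 (SE 0.16, adjusted p = 0.179 by limma) for the mean of the 5. STC2, a secreted glycoprotein that ATF4 induces (chr5:173314713-173329503), had 87.2, 73.04 and 61.03 scaled TPM in A34 libraries, 54.3, 48.5 and 44.9 in A41, 92.2, 68.2 and 64.98 in A80, 67.2, 49.8 and 52.9 in A98 and 71.8, 55.2 and 56.7 in bexarotene libraries, against 61.3, 56.96 and 51.4 in ethanol libraries. A80 was separate from ethanol, A34 replicate 3 lay just inside the ethanol range, and 2 of 3 A41 libraries lay below it. Its log2 change was 0.39 (adjusted p = 0.464) for A80 and 0.37 (adjusted p = 0.419) for A34 by limma.

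The endoplasmic reticulum arm gave small differences apart from XBP1 and HERPUD1. XBP1 encodes the factor whose mRNA IRE1 splices, and gene-level values do not separate the spliced from the unspliced form. XBP1 had 87.5, 82.8 and 85.8 scaled TPM in A34 libraries, 81.6, 77.1 and 69.5 in A41, 84.5, 93.4 and 77.6 in A80, 85.7, 81.6 and 71.7 in A98 and 80.04, 78.9 and 74.7 in bexarotene libraries, against 68.2, 70.6 and 68.03 in ethanol libraries. All libraries of A34, A80, A98 and bexarotene and 2 of the 3 of A41 lay above the ethanol libraries, and A41 replicate 3 lay inside the ethanol range. Its estimated log2 change was 0.30 (SE 0.08, adjusted p = 0.216 by limma) with A34 and 0.30 (SE 0.08, adjusted p = 0.286 by limma) with A80. The sensor genes ERN1, EIF2AK3 and ATF6 had log2 changes for the mean of the 5 of -0.16 (adjusted p = 0.683), 0.11 (adjusted p = 0.712) and -0.05 (adjusted p = 0.790) by limma.

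HERPUD1, a membrane protein that organizes degradation of misfolded proteins, had 58.1, 34.4 and 43.9 scaled TPM in A34 libraries, 49.1, 33.4 and 34.5 in A41, 66.9, 45.02 and 44.1 in A80, 51.2, 36.95 and 42.7 in A98 and 32.6, 40.1 and 32.6 in bexarotene libraries, against 32.2, 33.2 and 26.8 in ethanol libraries. The 4 coded compounds lay above ethanol in all libraries, and bexarotene overlapped it. The log2 change of HERPUD1 was 0.72 (SE 0.20, adjusted p = 0.330 by limma) with A80 and 0.45 (SE 0.16, adjusted p = 0.334 by limma) for the mean of the 5. SEL1L, the adaptor of the HRD1 ubiquitin ligase in the same pathway, had a log2 change of 0.01 (adjusted p = 0.991) for the mean of the 5.

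HSPA5, the chaperone BiP and the customary marker of this response (ENSG00000044574, chr9:125234853-125241343), had 298, 235 and 253 scaled TPM in A34 libraries, 300.1, 234 and 270.3 in A41, 301, 231 and 285 in A80, 249, 287 and 259.8 in A98 and 241, 239.7 and 255 in bexarotene libraries, against 247, 255 and 249 in ethanol libraries. Every group overlapped ethanol, the log2 change for the mean of the 5 was 0.06 (SE 0.09, adjusted p = 0.846 by limma), and its 95% interval was -0.12 to 0.24. DNAJB9, a BiP cofactor and a target of spliced XBP1, had 11.2, 6.49 and 8.29 scaled TPM in A34 libraries, 10.7, 6.56 and 8.54 in A41, 9.75, 9.61 and 8.43 in A80, 10.2, 7.09 and 6.71 in A98 and 7.00, 9.31 and 8.53 in bexarotene libraries, against 9.06, 6.09 and 7.89 in ethanol libraries. Its groups overlapped too, with a log2 change of 0.14 (adjusted p = 0.805) for the mean of the 5 by limma. HSP90B1, the chaperone GRP94, ranged from 379 to 458 scaled TPM and had a log2 change of 0.04, and SDF2L1, a BiP cofactor, ranged from 12.3 to 21.5 with 0.03. DNAJC3, another BiP cofactor, lay below all ethanol libraries in A34, A98 and bexarotene, with a log2 change of -0.15 (adjusted p = 0.452) for the mean of the 5 by limma. The lectin chaperone CANX lay below all ethanol libraries in A34, A41 and A98, within 345 to 403 scaled TPM over all 18. The log2 change of CALR, its soluble relative, was 0.03, and those of the disulfide isomerases PDIA4 and PDIA6 were 0.01 and 0.09. The secreted proteins CRELD2 and MANF, both induced by endoplasmic reticulum stress, had 0.15 (adjusted p = 0.546) and 0.06 (adjusted p = 0.878).

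Counted over the 39 genes, all 3 libraries lay above all 3 ethanol libraries for 15 genes with A34 (8.22% of all genes), 4 with A41 (8.27%), 16 with A80 (8.6%), 12 with A98 (8.49%) and 7 with bexarotene (6.88%). Of these, 13 with A34, 2 with A41, 14 with A80, 8 with A98 and 6 with bexarotene belonged to the ATF4 arm. Below all 3 ethanol libraries were 2 genes with A34 (8.36% of all genes), 2 with A41 (7.67%), 0 with A80 (7.78%), 2 with A98 (8.18%) and 1 with bexarotene (5.9%). The 4 genes above ethanol with A41 were HERPUD1, MANF, DDIT4 and SHMT2.

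Promoters of 5 of the genes are shown because they hold an element known for their arm. Windows of 300 bases, from 250 before to 50 after a gene's start, were taken from RefSeq on GRCh38.p14, where 36 of the 39 genes had an entry. Letters were searched on both strands. The endoplasmic reticulum stress response element ERSE (CCAAT, 9 bases of any kind, then CCACG), bound by NF-Y and ATF6, was present in CALR, CANX, CRELD2, HSP90B1, HSPA5, PDIA6 and XBP1, 7 of 17 in the endoplasmic reticulum arm and 0 of 19 in the ATF4 arm, against 0.0916% of the 27305 genes in the table, each counted once. ERSE-II (ATTGG, 1 base of any kind, then CCACG) was present in HERPUD1 and SDF2L1 (0.0696% of genes). The composite element of C/EBP and ATF factors (TGATGNAA), to which ATF4 binds, was present in ATF3, ASNS, CEBPG, CHAC1 and SLC3A2, 5 of 19 in the ATF4 arm, and in HERPUD1, 1 of 17 in the other (4.46% of genes). The core of the unfolded protein response element (TGACGTGG) was found for 0 of the 36 genes (0.927% of genes). No matches to different elements overlapped in these windows. Each stretch below is written 5′ to 3′ on the gene's strand and ends before the first base annotated as untranslated in GENCODE release 29, or is limited to 30 bases around a match that lies further in. Capitals mark the match, which in CHAC1 and in the first match of HERPUD1 reads on the opposite strand. HSPA5 is chr9:125241344-125241593 on the minus strand with ERSE. XBP1 is chr22:28800598-28800819 on the minus strand with ERSE. HERPUD1 is chr16:56931892-56932047 on the plus strand with the composite element and then ERSE-II. ASNS is chr7:97872458-97872487 on the minus strand and CHAC1 is chr15:40953251-40953280 on the plus strand, both with the composite element.
HSPA5: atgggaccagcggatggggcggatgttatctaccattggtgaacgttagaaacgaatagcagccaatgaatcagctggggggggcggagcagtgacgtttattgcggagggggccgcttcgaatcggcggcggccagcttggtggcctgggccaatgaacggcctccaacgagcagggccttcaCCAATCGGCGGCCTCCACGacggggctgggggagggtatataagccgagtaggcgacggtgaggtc
XBP1: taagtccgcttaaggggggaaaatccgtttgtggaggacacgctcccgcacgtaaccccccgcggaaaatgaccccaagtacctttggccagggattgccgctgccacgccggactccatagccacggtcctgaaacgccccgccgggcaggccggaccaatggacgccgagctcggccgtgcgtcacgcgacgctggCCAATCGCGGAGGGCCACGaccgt
HERPUD1: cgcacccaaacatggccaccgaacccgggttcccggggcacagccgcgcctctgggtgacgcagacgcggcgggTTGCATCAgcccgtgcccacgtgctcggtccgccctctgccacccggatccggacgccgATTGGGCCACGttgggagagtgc
ASNS: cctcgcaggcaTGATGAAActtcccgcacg
CHAC1: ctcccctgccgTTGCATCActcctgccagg

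Set beside the measurements, the 9 genes with ERSE or ERSE-II had a median log2 change of 0.07 with A34 and 0.10 with A80 against ethanol. The 6 genes with the composite element had medians of 0.34 and 0.44, and the 22 genes with no match 0.22 and 0.30. HERPUD1, which holds both kinds, had log2 changes of 0.52 and 0.72. DDIT4, VLDLR, SESN2 and SLC7A5 were among the genes whose window held no match to these letters. These medians describe the genes and were not tested.

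Among the rexinoids, all at 100 nM and 24 h, A41 had lower values in the ATF4 arm than A80 and A34, and 0 of 39 genes passed by limma in any of the 10 pairs, with p adjusted over all genes in each. In A41 against A80, 0.126% of all genes passed, 49.3% had a positive difference, and 31 of the 39 genes had a negative difference, of which 15 had an unadjusted p under 0.05 (7.95% of all genes). All 15 were in the ATF4 arm, where 21 of 22 changes were negative with a median of -0.44, against a median of -0.02 in the endoplasmic reticulum arm. ASNS had a log2 difference of -0.79 (SE 0.17, adjusted p = 0.0978 by limma), with an interval of -1.15 to -0.43, and PSAT1 of -0.68 (SE 0.15, adjusted p = 0.116 by limma), with every A41 library of either gene below every A80 library. In A41 against A34, where 0.0712% of all genes passed and 48.9% were positive, 21 of 22 changes in the ATF4 arm were negative with a median of -0.41, and 11 of the 39 genes had an unadjusted p under 0.05 (7.88% of all genes). There PSAT1 had -0.63 (adjusted p = 0.231) and ASNS -0.66 (adjusted p = 0.286) by limma. These comparisons share the A41 libraries, of which replicate 2 was the richest in ribosomal RNA, and the part of that in the difference was not tested. Without the 3 libraries rich in ribosomal RNA the log2 difference of ASNS in A41 against A80 was -0.72 (adjusted p = 0.392 by limma). That of PSAT1 was -0.57 (adjusted p = 0.473 by limma) and that of SLC38A2 -0.27 (adjusted p = 0.631 by limma). Of the 39 genes, 14 then had a positive difference in A41 against A80, where 8 did with all libraries.

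Between A34 and A80, 0 of the 39 genes had an unadjusted p under 0.05 (3.55% of all genes), and 0% of all genes passed. The log2 difference of DDIT4, A34 minus A80, was -0.19 with an interval of -0.86 to 0.47, that of ATF4 was 0.04 (-0.28 to 0.36) and that of HSPA5 -0.05 (-0.29 to 0.18). The interval for DDIT4 allows a difference of either sign, so A34 and A80 are not shown to act alike. Against bexarotene, DDIT4 differed by 0.35 for A34 (-0.32 to 1.01) and by 0.54 for A80 (-0.13 to 1.21), and 5 of the 39 genes had an unadjusted p under 0.05 in each comparison (5.2% and 6.06% of all genes, of which 0% passed in either). A41 and A98 against bexarotene gave 2 and 0 such genes (6.23% and 6.86% of all genes), where 0.115% and 0.00547% of all genes passed. A98 was set against A34, A41 and A80 with 0 of 39 genes passing each time, against 0.00547%, 0.131% and 0.00547% of all genes. The F test for any difference among the 5 rexinoids called 0 of 39 (0.0657% of all genes), and 9 of 39 had an unadjusted p under 0.05 (6.32%).

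By the replicate number in the titles, some genes of the ATF4 arm passed. This test comes from a fit with group and number as terms, and the treatment values above come from a fit without the number, so the calls of the 2 fits are not to be set against each other. With the number as a block, which gives the same terms, 5 of the 39 genes passed against ethanol with A34 and 6 with A80 (0.909% and 0.64% of all genes). The mean of the 5 gave 3 (0.805%), A41 and bexarotene 1 each (1.08% and 0.0712%) and A98 0 (0.0438%). The 5 with A34 were DDIT4, VLDLR, SLC7A5, SESN2 and STC2, and A80 added ASNS. DDIT4, VLDLR and SESN2 passed for the mean of the 5. In the test of replicate 1 against replicate 3, 7 of the 39 genes were higher in replicate 1 and 0 were lower, while 1.99% of all genes passed and 1.66% were higher. An unadjusted p under 0.05 was found for 19 of the 39 genes (14.2% of all genes). The 7 were DDIT4, STC2, SLC7A5, ATF3, SESN2, VLDLR and DDIT3, all of the ATF4 arm. In that arm 22 of 22 differences were positive (48.8% over all genes) with a median of 0.28, and in the endoplasmic reticulum arm 9 of 17 with a median of 0.00. The 39 genes were chosen when it was known that stress genes differed by replicate number. The counts by number are thus a description and not a check. The labels do not say what a replicate number stands for, whether a culture, a day or a plate.

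DDIT4 had 69.01 to 303 scaled TPM in the 6 replicate 1 libraries (median 184), against 61.96 to 145 scaled TPM in the 6 replicate 3 libraries (median 103). Replicate 1 was 1.69 to 2.09 times replicate 3 within the rexinoid groups and 1.11 times within ethanol, and the log2 difference was 0.78 (SE 0.10, adjusted p = 0.00331 by limma). STC2 had 54.3 to 92.2 scaled TPM in the 6 replicate 1 libraries (median 69.5), against 44.9 to 64.98 scaled TPM in the 6 replicate 3 libraries (median 54.8). Every group of STC2 had its higher value in replicate 1, and the log2 difference was 0.37 (SE 0.05, adjusted p = 0.00499 by limma). SLC7A5 had 30.7 to 67.3 scaled TPM in the 6 replicate 1 libraries (median 48.9), against 23.8 to 39.6 scaled TPM in the 6 replicate 3 libraries (median 33.7), with a log2 difference of 0.53 (SE 0.08, adjusted p = 0.00693 by limma) and replicate 1 above replicate 3 in 6 of 6 groups. ATF3 had 16.2 to 22.1 scaled TPM in the 6 replicate 1 libraries (median 17.2), against 11.00 to 14.2 scaled TPM in the 6 replicate 3 libraries (median 12.2). ATF3 thus separated the replicates without overlap, the lowest replicate 1 library lying above the highest replicate 3 library, with a log2 difference of 0.52 (SE 0.09, adjusted p = 0.00840 by limma).

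SESN2 had 18.8 to 36.1 scaled TPM in the 6 replicate 1 libraries (median 28.95), against 18.6 to 25.3 scaled TPM in the 6 replicate 3 libraries (median 21.3). VLDLR had 12.1 to 27.5 scaled TPM in the 6 replicate 1 libraries (median 18.2), against 9.65 to 18.1 scaled TPM in the 6 replicate 3 libraries (median 14.1). DDIT3 had 25.9 to 36.1 scaled TPM in the 6 replicate 1 libraries (median 28.8), against 22.5 to 27.1 scaled TPM in the 6 replicate 3 libraries (median 24.6). Their ranges overlapped, since groups differ as well as replicates. The log2 differences were 0.36 (SE 0.07, adjusted p = 0.0217 by limma) for SESN2, 0.45 (SE 0.09, adjusted p = 0.0285 by limma) for VLDLR and 0.25 (SE 0.06, adjusted p = 0.0454 by limma) for DDIT3. SESN2 was the exception in ethanol, where replicate 1 lay below replicate 3. Other genes of the arm did not pass, with log2 differences by limma of 0.38 (adjusted p = 0.0570) for TRIB3, 0.57 (adjusted p = 0.0858) for CHAC1, 0.28 (adjusted p = 0.107) for ATF4, 0.28 (adjusted p = 0.107) for PSAT1 and 0.31 (adjusted p = 0.119) for ASNS. In the endoplasmic reticulum arm HERPUD1 had the smallest p with 0.33 (adjusted p = 0.167), and HSPA5 had 0.05 (adjusted p = 0.828) by limma.

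Replicate 1 exceeded replicate 3 in all 5 rexinoid groups for 19 of the 39 genes (7.07% of all genes), and in all 6 groups for 14 (4.57%). It was the highest of the 3 in every rexinoid group for 7 genes (2.58% of all genes), namely ATF3, ATF4, DDIT4, SESN2, SLC7A5, STC2 and VLDLR. In ethanol the ATF4 arm averaged 0.04, 0.00 and -0.04 for replicates 1, 2 and 3 on the log2 scale relative to the ethanol mean. With A34 it averaged 0.57, 0.45 and 0.20, with A41 0.20, 0.00 and -0.12, with A80 0.64, 0.44 and 0.25, with A98 0.45, 0.13 and 0.13, and with bexarotene 0.35, 0.19 and 0.05. The endoplasmic reticulum arm averaged between -0.001 and 0.14 in the 15 rexinoid libraries. Whether the replicate difference is larger with a rexinoid than with ethanol was not tested.

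**Figure D3:**
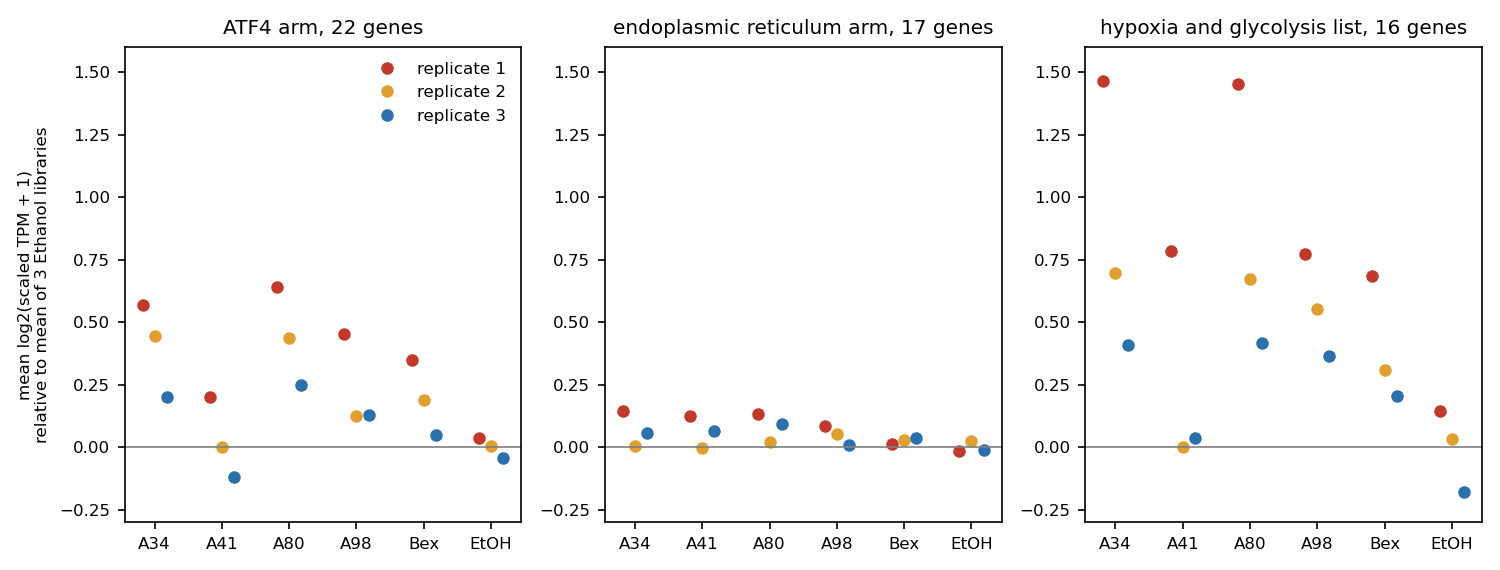
Mean of log2(scaled TPM + 1) relative to the mean of the 3 ethanol libraries, over the 22 genes of the ATF4 arm, the 17 genes of the endoplasmic reticulum arm and a list of 16 hypoxia and glycolysis genes, with 1 point per library coloured by replicate number. Replicate 1 is the highest point of every group in the first and last panels, reaching 0.64 in the ATF4 arm with A80, and the middle panel is flat.

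Replicate 1 against replicate 2 gave 0 of 39 genes by limma (0.0219% of all genes) and 11 with an unadjusted p under 0.05 (9.74%). Replicate 2 against replicate 3 gave 0 of 39 (0% of all genes) and 5 (5.74%). The F test for any difference among the 3 numbers called 4 of 39 (1.01% of all genes). The calls of replicate 1 against replicate 3 depended on the libraries. The count was 4 without A34 replicate 1 or 3, A80 replicate 1 or 3, or bexarotene replicate 3, and 8 without bexarotene replicate 1. DDIT4, STC2, SLC7A5 and ATF3 passed in each of the 12 fits that left out 1 replicate 1 or replicate 3 library, and SESN2, VLDLR and DDIT3 each missed the threshold in at least 1 of these fits. With TPM as deposited, which moved the median of all genes by -0.16 in this comparison, 0 of 39 passed and the log2 difference of DDIT4 was 0.60.

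**Figure D4:**
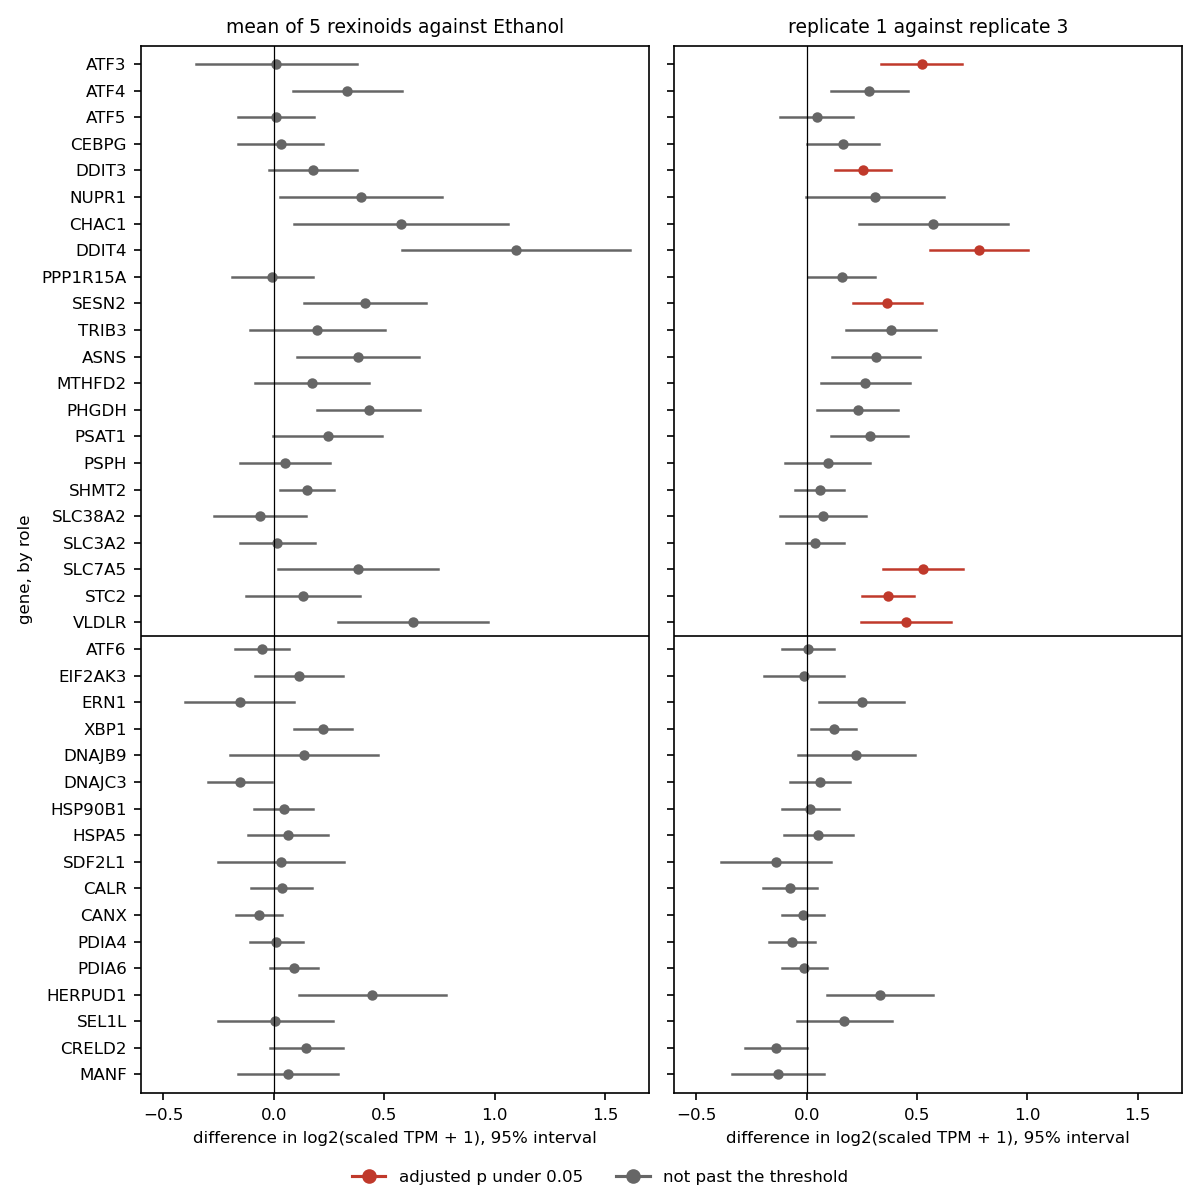
Log2 difference with its 95% interval for each of the 39 genes (the line separates the ATF4 arm above from the endoplasmic reticulum arm below). The left panel shows the 5 rexinoids' mean against ethanol, from the fit with group alone, and the right panel replicate 1 against replicate 3, from the fit with group and number. On the right 7 genes of the ATF4 arm are past the threshold, from DDIT3 at 0.25 to DDIT4 at 0.78. On the left DDIT4 has the highest estimate, 1.10, and the calls of the panels cannot be compared, since their fits differ in form. With the replicate number in the titles added as a block, the comparison on the left called 3 of the 39 genes (0.805% of all genes).

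Other lists of the same pathways were read in the same comparisons, the mean of the 5 rexinoids with ethanol as reference and replicate 1 against replicate 3. In these, 0.203% and 1.99% of all genes passed. Of 20 further ATF4 targets, 0 passed with the mean of the 5 (16 positive), led by the cysteine-making enzyme CTH at 0.61 (adjusted p = 0.199), the mitochondrial folate enzyme ALDH1L2 at 0.63 (adjusted p = 0.257) and the translation repressor EIF4EBP1 at 0.41 (adjusted p = 0.262) by limma. Between replicates 1 and 3, 19 of the 20 were positive and 2 were higher, the transaminase GPT2 at 0.53 (adjusted p = 0.0309) and EIF4EBP1 at 0.35 (adjusted p = 0.0359), and the glycine transporter SLC6A9 had 0.50 (adjusted p = 0.0673). Of 12 cytosolic aminoacyl-tRNA synthetases, 12 had a positive change with the mean of the 5 with a median of 0.11, but 0 passed, CARS1 having the smallest p at 0.20 (adjusted p = 0.248) by limma. Of 15 genes of the eIF2 kinases and of eIF2 control, 0 passed in either comparison, with medians of -0.04 in both. A further 32 genes of endoplasmic reticulum quality control gave 0 calls in either, with medians of 0.00 and 0.01, and the prolyl isomerase FKBP14 at -0.28 (adjusted p = 0.258) was the first of them in the mean of the 5 by limma.

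Genes outside the pathway also differed by replicate number, in a comparison where 1.99% of all genes passed and 1.66% were higher in replicate 1. Of the 16 hypoxia and glycolysis genes, 12 were higher in replicate 1 than in replicate 3 and 0 lower, among them the carbonic anhydrase CA9 at 1.10 (SE 0.11, adjusted p = 0.00140 by limma), the glucose transporter SLC2A1 at 0.96 (SE 0.12, adjusted p = 0.00304 by limma) and NDRG1 at 1.27 (SE 0.18, adjusted p = 0.00462 by limma). In the mean of the 5 rexinoids against ethanol, 0 of the 16 passed and 16 were positive, with a median of 0.45. Summed over the list, levels were 7916 to 11889 scaled TPM in A34, 6586 to 9345 in A41, 8334 to 11584 in A80, 7561 to 8587 in A98 and 6522 to 8269 in bexarotene libraries, against 5993 to 6836 in ethanol libraries. Of 11 heat shock genes, cytosolic apart from the mitochondrial HSPD1 and HSPE1, 11 had a negative difference between replicates 1 and 3 and 2 were lower, HSPH1 at -0.31 (adjusted p = 0.0470) and HSPA8 at -0.23 (adjusted p = 0.0473) by limma. The part of these lists in the results for the 39 genes was not tested. These lists were chosen with earlier results of these data known, so their counts are a description and not a check. Markers of other cell types summed to 14.7 to 22.0 scaled TPM in A34, 11.1 to 15.1 in A41, 15.6 to 22.7 in A80, 13.5 to 18.7 in A98 and 15.7 to 16.5 in bexarotene libraries, against 15.6 to 18.6 in ethanol libraries. A list of 4 known targets of RXR partners was also chosen with earlier results of these data known, so its calls are a description and not a check. The retinoid enzyme DHRS3 was higher with the mean of the 5 rexinoids, at 1.22 (SE 0.07, adjusted p = 1.31e-07 by limma). So were the retinoic acid hydroxylase CYP26B1, the desaturase SCD and the cholesterol exporter ABCA1, 4 of 4 on that list, where 0.203% of all genes passed. Between replicates 1 and 3, 0 of these 4 passed.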

How the data were processed

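Per the submitters' processing notes, reads were handled with STAR, StringTie and MultiQC on build GRCh38; the sources used here name no version, annotation release or strand setting, so reads of overlapping or antisense genes may be shared. The authors deposited 1 StringTie table per library with TPM, FPKM and coverage. Deposited TPM is a share of all transcripts of a library, deposited FPKM counts fragments per kilobase, and coverage is the deposited mean signal per base. The commonest ratio of coverage to FPKM over genes gave an estimate of depth. No read counts were in the tables, so no count model was used. The tables of the A98 group carry another code in their names, and some table names bear another replicate number than the title does; titles were followed.

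A median-of-ratios factor (0.419 to 1.21) was taken from 16349 tested genes above 0 in every library, and TPM was divided by it, since TPM falls where ribosomal RNA is abundant. Testing needed 1 TPM or more in 3 or more of 18 libraries. Log2(scaled TPM + 1), a scale that understates changes of low genes, was fitted for all 18 libraries in 1 model with limma 3.58.1 (R 4.3.3, trend, 12 residual and 3.39 prior degrees of freedom); tests are two-sided, p-values were adjusted by Benjamini-Hochberg across the tested genes of a comparison, and the threshold was 0.05. Tests by replicate number had group as a term. The code was tested on simulated data. No libraries held identical values (0 pairs), and Pearson's r across genes was 0.951 to 0.981 within groups. Deviations of same-numbered libraries from their group means correlated over 0.1 in every pair for A41 against ethanol alone (0.119 to 0.307), where both second replicates were rich in ribosomal RNA; numbers were taken to pair those libraries. Members and lists were chosen with earlier results of these data known, including that stress genes differed by replicate number. Values in every library are given for 12 genes of known role, for members called without a block, and for those called in A34 or A80 against ethanol with the block from the titles; PHGDH, PSAT1 and SLC38A2 were added after their values were seen. Alternatives were no filter, a pseudocount of 0.1, TPM as deposited, the compared groups alone, replicate blocks, and leaving out libraries.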

Additional observations from a re-analysis of the deposited data

How the results depend on the processing

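Where no alternative is named, the number of the 39 genes called was the same or within 1.5 times under the alternatives run. Apart from A41 against ethanol, the title numbers were not taken to pair the libraries, because the correlations of deviations did not exceed 0.1 in every pair. A rule on correlations over all genes cannot show that the numbers share no variation. Between replicates 1 and 3, 1.99% of all genes passed. The 45 same-numbered pairs of deviations correlated at -0.356 to 0.307 (median 0.0288), and 9 of 18 libraries correlated best with their own number. A replicate block from the titles called 5 genes in A34 against ethanol (DDIT4, VLDLR, SLC7A5, SESN2 and STC2, where 0.909% of all genes passed), 6 in A80 against ethanol (the same with ASNS, 0.64%), 1 each in A41 (1.08%) and bexarotene (0.0712%) against ethanol, 3 for the mean of the 5 rexinoids (DDIT4, VLDLR and SESN2, 0.805%), 2 in A41 against A34 (0.159%), 6 in A41 against A80 (0.411%) and 2 among the 5 rexinoids (0.159%). This is also the fit behind the tests of replicate number. A replicate block from the table names called 2 genes in A34 (0.312% of all genes), 2 in A80 (0.279%) and 2 for the mean of the 5 (0.542%) against ethanol, and 4 in A41 against A80 (0.345%). It changed no other count. Leaving out 1 library gave 0 to 1 genes in A34 against ethanol (1 without A34 replicate 3) and 0 to 1 in A41 against ethanol, A34 and A80 (1 without A41 replicate 1). Replicate 1 against replicate 3 called 4 genes with no filter, 0 with TPM as deposited and 4 to 8 leaving out 1 of the 12 libraries compared, and 7 with the 3 libraries of high ribosomal RNA left out, though DDIT3, SESN2 and VLDLR were lost there. DDIT4, STC2, SLC7A5 and ATF3 were lost in 1 of 16 alternatives each (TPM as deposited), VLDLR in 10, SESN2 in 11 and DDIT3 in 13. Replicate 1 against replicate 2 called 0 to 3 genes (3 without ethanol replicate 1). The F test among replicate numbers called 0 genes with no filter, with table-name numbers, with TPM as deposited and leaving out those 3 libraries, and 0 to 5 leaving out 1 library (0 without A34 replicate 1 or A80 replicate 1, and 2 without A34 replicate 3, A80 replicate 3 or bexarotene replicate 1 or 3). The causes were not tested. Of 1024 alternative fold changes for 65 gene comparisons, 945 kept their side of the threshold, 38 lost a call, 41 gained one and 0 reversed. All 38 losses were among the 7 genes called in replicate 1 against replicate 3, with 16 alternatives for each gene. The other gene comparisons had no call to lose, so the share of 945 does not measure how stable the calls were. Depth limits the genes near 1 TPM most, and the 39 genes averaged 4.69 scaled TPM or more.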
